A study of Hermetia illucens with 24 samples.

Results

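The transcripts described here come from 6 genes of the mitochondrial genome of the black soldier fly, Hermetia illucens: CYTB, COX1, COX2, COX3, ATP6 and ATP8. They were taken by name from a table of read counts with 15187 named genes, and all 6 were among the 10165 genes with enough counts to test. CYTB encodes cytochrome b, the subunit of respiratory complex III that passes electrons from ubiquinol towards cytochrome c. COX1, COX2 and COX3 encode the core subunits of complex IV, cytochrome c oxidase, which hands electrons to oxygen, and ATP6 and ATP8 encode membrane subunits of the ATP synthase, which uses the resulting proton gradient. Insect mitochondrial genes are transcribed as long precursors that are cut into shorter messengers, so messengers that start from one precursor can still differ in level through processing and stability.

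The libraries came from whole larvae that were 5 days old when they received chicken feed, either plain or spiked with AFB1 (aflatoxin B1, made by Aspergillus moulds), which cytochrome P450 enzymes can turn into a reactive epoxide. Larvae were taken after 6, 24 or 72 h, which gives 6 groups with 4 libraries in each and 24 libraries in all. The protocol speaks of 5 replicates of 2 pooled larvae per group, of which 4 libraries per group were analysed here, and the AFB1 dose and the strain could not be read from the labels. Nothing in them says whether the pools came from separate containers, so that the p-values measure the spread between these libraries, and time in a group cannot be told apart from larval age or from time on the feed.

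Library totals ran from 6826454 to 27136702 counts. A single row, LOC119646963, for which the table gives no product name, took between 7.12% and 81.1% of a library, with an exact 95% interval no wider than ± 0.035 percentage points for counting error alone. Its share was 56.4% ± 25.5 (SD, n = 4) in the AFB1 24 h group and between 11.4% and 18.9% on average in the other 5 groups. Levels are therefore given in CPM, a gene's counts scaled to a common library size, over the counts outside LOC119646963, and beside them with that row included. Control 24 h replicate 4 stood apart from the other 3 libraries of its group, with 36.8% of its counts in LOC119646963 against 7.12% to 7.92%. The 24 h estimates of COX1, COX3, CYTB and ATP6, which rest on it, are also given without it. Because the samples are whole larvae, fewer cells rich in mitochondria and less mitochondrial RNA per cell cannot be told apart.

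Seen per length, the counts assigned to the 6 genes kept a steep order. In 18 of 24 libraries the CPM per kilobase fell in the order ATP8, COX2, COX3, COX1, CYTB and ATP6. ATP8 was highest and ATP6 lowest in all 24 libraries. In the control 6 h group the level outside LOC119646963 was 85182 ± 19131 CPM per kilobase for ATP8, 14034 ± 1888 for COX2, 3251 ± 794 for COX3, 842 ± 356 for COX1, 311 ± 177 for CYTB and 5.80 ± 2.32 for ATP6 (SD, n = 4). The neighbours COX1 and CYTB lay close to each other in that order, and the others were separated by more than their SDs. In the remaining 6 libraries COX3 stood above COX2 per length. These were the 4 AFB1 24 h libraries, control 24 h replicate 4 and AFB1 6 h replicate 3.

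The gap between ATP8 and ATP6 sits between neighbours that share bases. In the RefSeq annotation of the assembly iHerIll2.2, COX1, COX2, ATP8, ATP6 and COX3 follow one another, ATP8 (168 bases) and ATP6 (678 bases) overlap by 7 bases, and 1 base separates ATP6 from COX3. ATP6 nevertheless had only 31 to 1190 counts in a library, where ATP8 had 33408 to 222947. How reads lying over more than 1 of these genes were assigned, and whether strand was used, is not given in the sources used here, so the split of counts between ATP8, ATP6 and COX3 is uncertain. The values for ATP8 and ATP6 here and below are counts assigned to each gene, and may not give the levels of separate messengers.

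At 24 h the question was whether AFB1 feed changed the 6 transcripts. COX1 and COX3, core subunits of complex IV, and ATP8, a subunit of the ATP synthase, were higher in larvae on AFB1 feed. COX2, the copper-carrying subunit that receives the electrons from cytochrome c, showed no detected change. CYTB and ATP6 had estimates above 2 on the log2 scale, with larger errors than the other 4 genes, and missed the threshold. With edgeR's quasi-likelihood test, an adjusted p under 0.05 was reached by 3 of 6 genes, all higher, beside 31.3% of all genes tested (12.2% higher and 19.1% lower). The median log2 fold change of the 6 genes was 2.05, against -0.16 over all genes. In a fit of only the 8 libraries compared, 0 of 6 passed (3 had an unadjusted p under 0.05), beside 9.52% of all genes, at log2 fold changes of 2.29 for COX1 (adjusted p = 0.0635), 1.87 for COX3 (0.0768) and 1.01 for ATP8 (0.153).

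**Figure D1:**
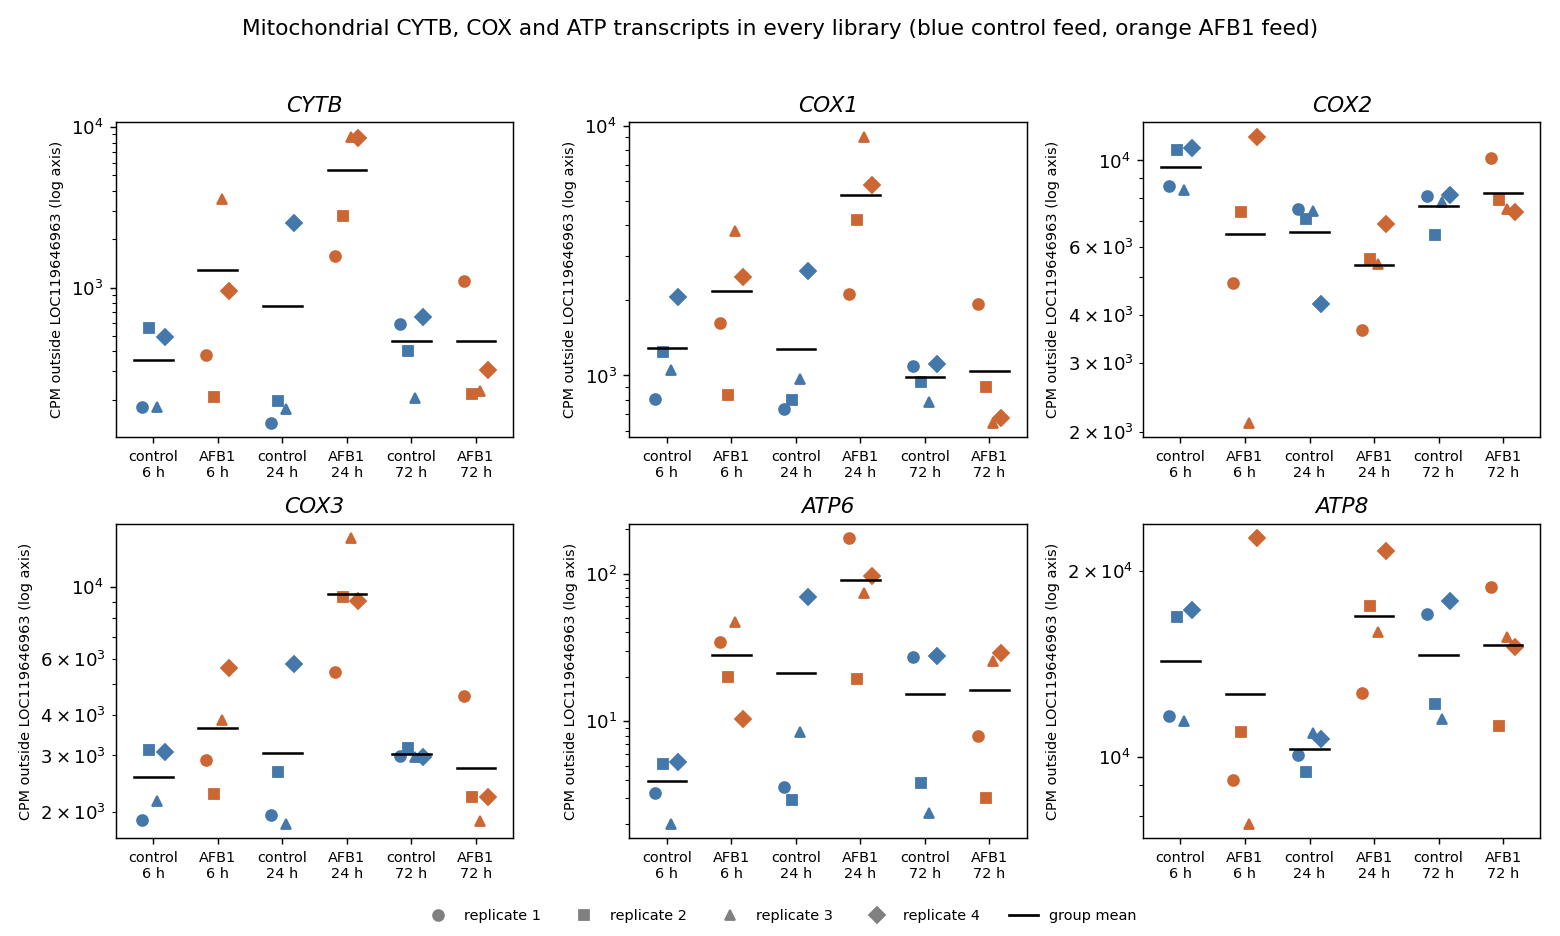
CPM outside LOC119646963 (log axis) of each of the 6 genes in the 24 libraries, by diet and time; each symbol is a replicate and each bar a group mean (n = 4). Every gene but COX2 is highest on average in the AFB1 24 h group, ATP8 with ranges that overlap those of other groups. Control 24 h replicate 4 lies far from the other control 24 h libraries in every gene but ATP8.

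COX1, the catalytic subunit that holds the oxygen-binding centre, stood at 736, 797, 964 and 2627 CPM outside LOC119646963 in control 24 h replicates 1 to 4. On AFB1 feed it stood at 2128, 4207, 9057 and 5783 CPM. The groups overlapped only through control replicate 4, which lay above AFB1 replicate 1. The log2 fold change was 2.33 (SE 0.66, edgeR adjusted p = 0.0140), and 3.22 when control 24 h replicate 4 was left out. Without AFB1 24 h replicate 3 it was 1.76 with an adjusted p of 0.0640, in a range of 0.00134 to 0.0640 over the 24 fits that each left out a library.

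COX3, a core subunit without metal centres, gave 1961, 2664, 1836 and 5759 CPM in control 24 h replicates 1 to 4. The AFB1 libraries gave 5438, 9336, 14235 and 9053 CPM. Again only control replicate 4 reached into the AFB1 range. On the log2 scale COX3 was higher by 1.90 (SE 0.51, adjusted p = 0.0109), and by 2.65 when control 24 h replicate 4 was left out. It passed the threshold in each of the 24 fits that left out a library, though not in the fit of only the 8 libraries.

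ATP8 gave 10045, 9440, 10922 and 10672 CPM outside LOC119646963 in control 24 h replicates 1 to 4 and 12695, 17571, 15925 and 21557 CPM on AFB1 feed. These groups did not overlap, as was the case for 5.21% of all genes tested in the higher direction. The log2 difference was 1.05 (SE 0.34, adjusted p = 0.0253). It lost its call without any of control 24 h replicates 1, 2 or 3 or AFB1 24 h replicates 3 or 4, with adjusted p from 0.0593 to 0.0647. Control 24 h replicate 4, which stood apart in the other genes, lay inside its group in CPM outside LOC119646963. Scaled with TMM, as in the test, it stood at 9624 CPM, above 6388, 6455 and 6625 CPM in replicates 1 to 3.

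CYTB had the largest estimate of the 6 at 24 h. Its control 24 h libraries held 144, 196, 175 and 2540 CPM, and its AFB1 24 h libraries 1569, 2783, 8700 and 8498 CPM. The log2 fold change was 2.95 (SE 1.13, adjusted p = 0.0506), and without control 24 h replicate 4 it was 5.52 with an adjusted p of 0.00148, in a range up to 0.135 over the libraries left out. It also passed without AFB1 6 h replicate 2 or 3, AFB1 24 h replicate 1 or AFB1 72 h replicate 1, with adjusted p from 0.0294 to 0.0448. DESeq2 (adjusted p = 0.00838), limma voom (0.0168) and edgeR with RLE size factors (0.0455) called it with all libraries. A single control library thus stood far above the other 3 of its group and inside the AFB1 range.

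ATP6 stood at 3.61, 2.91, 8.53 and 69.6 CPM in control 24 h replicates 1 to 4 and at 175, 19.3, 74.4 and 97.0 CPM on AFB1 feed. The log2 fold change of 2.19 (SE 1.07) did not pass (adjusted p = 0.119). Without control 24 h replicate 4 it was 4.68 with an adjusted p of 0.00284, in a range up to 0.252. With all libraries limma voom called ATP6, at 3.63 (adjusted p = 0.0211), and DESeq2 did not.

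With TMM, COX2 had the smallest estimate at 24 h. Its ratios to the other genes were tested too, but 4 against 4 libraries allow no exact permutation p under 0.0286. Even the ratio to ATP8, whose groups did not overlap, had an adjusted p of 0.184, so these tests cannot decide whether the ratios changed. COX2 stood at 7486, 7058, 7407 and 4254 CPM in control 24 h replicates 1 to 4 and at 3667, 5586, 5408 and 6875 CPM on AFB1 feed, with overlapping groups. The log2 fold change was 0.10, with a 95% interval from -0.57 to 0.77 (adjusted p = 0.827), an interval that leaves room for a moderate change in either direction.

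The levels with LOC119646963 in the totals read differently, because that row took 56.4% of the AFB1 24 h counts on average. COX2 then fell from 5749 ± 2048 to 2138 ± 941 CPM and ATP8 went from 8717 ± 1423 to 6862 ± 3223 CPM, while COX3 went from 2404 ± 890 to 3667 ± 1497 CPM and COX1 from 992 ± 453 to 1844 ± 636 CPM (SD, n = 4). Scaled in that way, COX2 had a log2 fold change of -1.43 (edgeR adjusted p = 0.0143) and was the only one of the 6 genes called, but the median of all genes was itself -1.39, so that COX2 lay at -0.04 relative to it. Relative to that median COX1 lay at 2.29, COX3 at 2.00, CYTB at 3.05, ATP6 at 3.00 and ATP8 at 1.05. That scaling placed 92 genes among the higher and 5090 among the lower calls, where TMM placed 1238 and 1943. With totals outside LOC119646963 the median of all genes was -0.48, 894 genes were called higher and 2368 lower, and COX1, COX3 and CYTB passed while ATP8 (log2 fold change 0.72, adjusted p = 0.0812) did not.

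**Figure D2:**
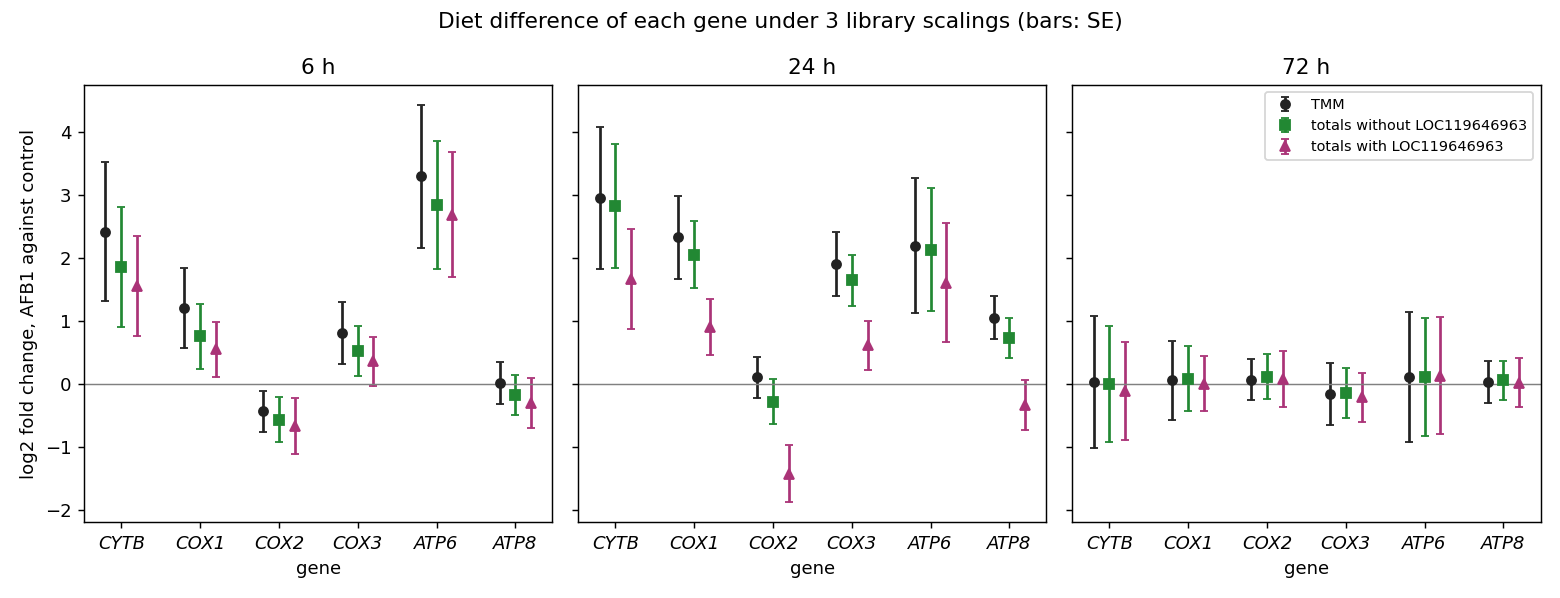
Log2 fold change of each gene, AFB1 against control, at 6, 24 and 72 h under TMM scaling and under totals with and without LOC119646963; bars are SE. At 24 h COX2 moves from 0.10 with TMM to -1.43 with that row in the totals, and the 3 scalings nearly coincide at 72 h.

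At 6 h none of the 6 genes passed the edgeR test, beside 14.3% of all genes. The unadjusted p was under 0.05 for 2 of them, and DESeq2 called 1, ATP6. ATP6 stood at 3.28, 5.11, 2.01 and 5.33 CPM outside LOC119646963 in control 6 h replicates 1 to 4 and at 34.5, 20.0, 47.1 and 10.3 CPM on AFB1 feed. All 4 AFB1 libraries lay above all 4 control libraries, as for 4.19% of all genes in that direction, on counts of 31 to 52 against 75 to 840. ATP6 was higher by 3.29 on the log2 scale (SE 1.13, adjusted p = 0.0551). It passed in 6 of the 24 fits that left out a library (control 24 h replicate 1, 2 or 4, AFB1 6 h replicate 2 or 4, or AFB1 72 h replicate 2), and the adjusted p lay at 0.0192 without control 24 h replicate 4 and at 0.188 when AFB1 6 h replicate 3 was left out.

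AFB1 6 h replicate 3 weighed on the other estimates at 6 h. CYTB stood at 381, 207, 3561 and 958 CPM in AFB1 replicates 1 to 4, against 181, 561, 181 and 490 CPM in the control libraries. The estimate for CYTB, 2.42 on the log2 scale with SE 1.10 (adjusted p = 0.141), became 0.58 without that replicate. The COX1 estimate of 1.20 (SE 0.63, adjusted p = 0.202) was 0.47 without it. COX2 ranged in the same AFB1 group from 2109 CPM in replicate 3 to 11518 CPM in replicate 4, and its log2 fold change was -0.44 (SE 0.32, adjusted p = 0.369). COX3 (0.81, SE 0.49, adjusted p = 0.272) and ATP8 (0.01, SE 0.34, adjusted p = 0.984) did not pass.

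At 72 h no difference by diet was detected in any of the 6 genes, beside 9.28% of all genes called. None had an unadjusted p under 0.05, and DESeq2 and limma voom called none. The log2 fold changes ran from -0.16 for COX3 to 0.11 for ATP6, and the adjusted p from 0.948 to 0.997. The precision differed between genes, with a 95% interval of -0.61 to 0.74 for COX2 and of -2.15 to 2.20 for CYTB. The COX2 level outside LOC119646963 was 7619 ± 814 CPM in control and 8238 ± 1296 CPM in AFB1 larvae, and that of ATP8 was 14643 ± 3253 and 15184 ± 3119 CPM (SD, n = 4).

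Within the AFB1 larvae, COX1, COX3 and CYTB were lower at 72 h than at 24 h. These 3 of 6 genes passed the edgeR test, all lower, beside 37.2% of all genes (21.5% higher and 15.7% lower). The log2 change was -3.80 (SE 1.17, adjusted p = 0.0167) for CYTB, -2.66 (SE 0.66, adjusted p = 0.00547) for COX1 and -2.08 (SE 0.51, adjusted p = 0.00511) for COX3. Outside LOC119646963 the AFB1 72 h libraries held 1100, 218, 225 and 306 CPM of CYTB, 1936, 896, 647 and 673 CPM of COX1 and 4606, 2231, 1876 and 2225 CPM of COX3, and in each gene all 4 lay below all 4 AFB1 24 h libraries, as for 8.75% of all genes in that direction. ATP6 (-2.66, SE 1.09, adjusted p = 0.0595), ATP8 (-0.39, SE 0.34, adjusted p = 0.370) and COX2 (0.35, SE 0.32, adjusted p = 0.403) did not pass. ATP6 did pass when control 24 h replicate 1, 2 or 4, control 72 h replicate 3 or AFB1 24 h replicate 2 was left out, with adjusted p from 0.0233 to 0.0499. It was also called by DESeq2 (adjusted p = 0.0168), by limma voom (0.0371) and in the fit of only the 8 libraries (0.0347). This comparison and that of diet at 24 h share the AFB1 24 h libraries. With LOC119646963 in the totals the median of all genes was 1.38, 5123 genes were called higher and 242 lower, COX2 passed as higher (1.70, adjusted p = 0.00556) and COX3 did not pass (-0.71).

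The calls at 24 h and between 24 and 72 h were lost without the AFB1 24 h libraries richest in LOC119646963. Without AFB1 24 h replicates 3 and 4, which had 74.2% and 81.1% of their counts in that row, 0 of the 6 genes passed at 24 h (1 had an unadjusted p under 0.05), where 0.00957% of all genes did, and 0 passed between 24 and 72 h (3 had an unadjusted p under 0.05), where 19.1% of all genes did. The log2 fold changes were then 1.34 for COX1 and 1.33 for COX3 at 24 h, and -2.31 for CYTB, -1.74 for COX1 and -1.56 for COX3 between 24 and 72 h. Leaving out control 24 h replicate 4 as well, a choice made after seeing the data, gave 4 of 6 at 24 h, namely ATP6, COX1, COX3 and CYTB, beside 30.7% of all genes, and 2 of 6 between 24 and 72 h, COX1 and COX3, beside 28.9%. The part of LOC119646963 in these differences was not tested.

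Averaged over the 3 times, 4 of 6 genes were higher on AFB1 feed (ATP6, COX1, COX3 and CYTB), beside 37.4% of all genes called (18.2% higher), and the median log2 fold change of the 6 was 1.02. Without AFB1 6 h replicate 3, AFB1 24 h replicate 3 or AFB1 72 h replicate 1 the number was 2, beside 29.9% to 32.6% of all genes. With the control 72 h libraries, which were nearly alike, summed to 2 it was 1 (beside 24.2% of all genes) and with them summed to 1 it was 0 (beside 11.1%). With LOC119646963 in the totals 2 genes were called in either direction, ATP6 and COX2, beside 32.6%. COX2 was then lower on AFB1 feed, not higher, with log2 fold changes of -0.67 at 6 h and -1.43 at 24 h. At 72 h its estimate ran from -0.13 to 0.18 over the alternative fits, left-out libraries included. The test of whether the diet effect differed between times was passed by none of them, beside 5.47% of all genes, with 1 unadjusted p under 0.05 and a lowest adjusted p of 0.126. Without control 24 h replicate 4 it was passed by 4, beside 23.1% of all genes. The absence of a call at 6 and 72 h is therefore not shown to differ from the 24 h calls. In the control larvae none of the 6 passed between 6 and 24 h (beside 5.01% of all genes, with 1 of the 6 at an unadjusted p under 0.05 and 1 called by DESeq2), between 24 and 72 h (beside 11.4%) or between 6 and 72 h (beside 0%), and the last 2 comparisons had 0 of the 6 at an unadjusted p under 0.05. In the AFB1 larvae 0 of 6 passed between 6 and 24 h (3 unadjusted p under 0.05), beside 4.04% of all genes. There 3 passed without AFB1 6 h replicate 3, beside 28.3% of all genes. Leaving out control 24 h replicate 4, AFB1 24 h replicate 1 or AFB1 72 h replicate 1 gave 1. The share of all genes is not given for these last fits, so their count is no result about the 6 genes. With the replicate number as a block 0 of 6 passed between 6 and 24 h, beside 0% of all genes. Likewise 0 of 6 passed between 6 and 72 h, beside 11.7%.

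Ordered by group, the mean level of CYTB outside LOC119646963 was 5387 ± 3742 CPM in AFB1 24 h larvae, 1277 ± 1557 in AFB1 6 h, 764 ± 1184 in control 24 h, 464 ± 202 in control 72 h, 462 ± 427 in AFB1 72 h and 353 ± 201 in control 6 h larvae (SD, n = 4). COX1 and COX3 also had the AFB1 24 h group first and AFB1 6 h second, at 5294 ± 2921 and 2184 ± 1270.1 CPM for COX1 and 9516 ± 3612 and 3664 ± 1451 CPM for COX3. Below the AFB1 24 h group the neighbouring group means of these 3 genes lay within their SDs. ATP6 and ATP8 had the AFB1 24 h group first as well, ATP8 with ranges that overlapped those of other groups. For ATP8 the control 24 h group was low, at 9440 to 10922 CPM. Control 6 h larvae had 11421 to 17316 CPM and control 72 h larvae 11523 to 17855 CPM. Neither difference from control 24 h passed the edgeR test (adjusted p = 0.622 and 0.263), and with TMM these ranges overlapped. For COX2 the group means ran from 5384 ± 1318 CPM in AFB1 24 h to 9599 ± 1292 CPM in control 6 h larvae, with the mean ± SD ranges of neighbours overlapping. That order depended on the scaling: with TMM, COX2 stood at 4809 ± 1397 CPM in AFB1 24 h larvae, above control 24 h (4479 ± 452) and AFB1 6 h (4479 ± 1964), and was highest in AFB1 72 h larvae (6129 ± 1776).

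The make-up of the 6 transcripts is computed without a library size, so the counts of LOC119646963 do not enter it. COX2 supplied 34.5% ± 2.52 of their summed counts in control 6 h, 30.7% ± 9.59 in control 24 h and 28.7% ± 3.21 in control 72 h larvae. In control 24 h replicates 1 to 4 COX2 supplied 36.7%, 35.0%, 34.8% and 16.4%. On AFB1 feed it supplied 24.0% ± 10.1, 13.0% ± 1.94 and 30.2% ± 3.41 at the same times (SD, n = 4). COX1, COX3 and CYTB moved the other way at 24 h, from 5.56% ± 3.08, 13.4% ± 6.19 and 3.07% ± 4.48 in control to 11.8% ± 3.68, 22.2% ± 3.89 and 11.5% ± 5.65 in AFB1 larvae. ATP8 made up 47.1% ± 4.37 and 41.3% ± 8.33 in the same groups, and ATP6 under 1% throughout.

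**Figure D3:**
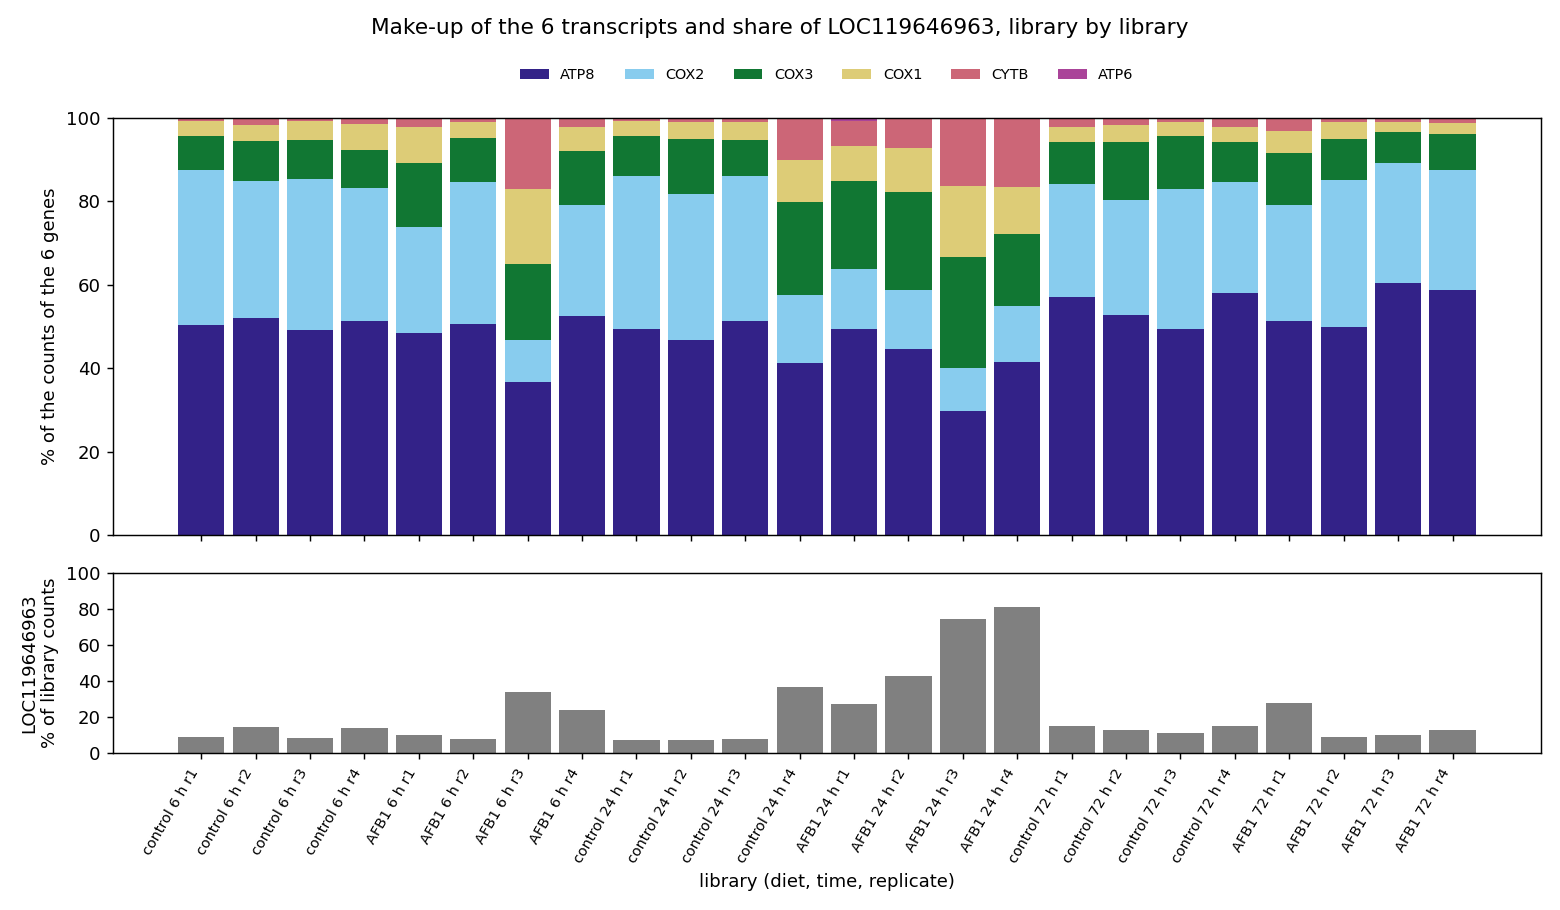
Share of each gene in the summed counts of the 6 genes (upper panel, %) and share of LOC119646963 in all counts (lower panel, %), one bar per library. The COX2 band is narrow in the 4 AFB1 24 h libraries, in AFB1 6 h replicate 3 and in control 24 h replicate 4.

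The ratio of COX2 to COX1 counts showed the same shift library by library. It was 10.2, 8.85, 7.68 and 1.62 in control 24 h replicates 1 to 4 and 1.72, 1.33, 0.597 and 1.19 in the AFB1 24 h libraries. At 6 h it was 10.7, 8.56, 7.94 and 5.21 in control and 2.98, 8.82, 0.555 and 4.64 in AFB1 larvae, and at 72 h it ran from 6.79 to 9.95 in control and from 5.24 to 11.6 in AFB1 larvae. At 24 h control replicate 4 alone kept the groups from separating. The difference in mean log2 ratio of COX1 to COX2 was 2.36 at 24 h (two-sided exact permutation test, p = 0.0571), 1.45 at 6 h (exact p = 0.114) and -0.17 at 72 h (exact p = 0.571).

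Of all 15 pairs of the 6 genes at 3 times, 45 tests, none passed after Benjamini-Hochberg adjustment. The smallest p that 4 against 4 libraries allow is 0.0286, and the lowest adjusted p was 0.184 (exact permutation test). Every pair whose groups separated completely had that adjusted p, so the lack of a pass cannot show that the proportions were alike. Groups did not overlap in 6 pairs at 6 h (beside 19.4% of all pairs of tested genes), in 1 pair at 24 h (beside 16.2%) and in 0 pairs at 72 h (beside 26.8%), and those were also the pairs with an unadjusted p under 0.05. Of the 6 pairs at 6 h, 4 involve ATP6 and the others are COX2 with COX3 and COX3 with ATP8. The pair at 24 h was COX2 with ATP8. The ATP8 to COX2 count ratio was 1.34, 1.34, 1.47 and 2.51 in control 24 h replicates 1 to 4 and 3.46, 3.15, 2.94 and 3.14 in the AFB1 24 h libraries, and the mean log2 ratio of COX2 to ATP8 was lower by 0.98 on AFB1 feed (exact p = 0.0286, adjusted p = 0.184). Without control 24 h replicate 4, 11 of 15 pairs did not overlap at 24 h, beside 45.2% of all pairs of tested genes. The number was 3 without AFB1 24 h replicate 1 (beside 25.1%) and 2 without AFB1 24 h replicate 4 (beside 20.8%). At 6 h it was 10 without AFB1 6 h replicate 2 (beside 32.3%) and at 72 h it was 1 without AFB1 72 h replicate 1 (beside 32.6%). None of these pairs passed, with the same limit, since no exact p lay under 0.0286.

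The 6 libraries with the lowest COX2 to COX1 ratio, 0.555 to 1.72, were also among the 7 with the highest share of LOC119646963. The other one of those 7, AFB1 72 h replicate 1, had 27.7% of its counts in that row and a ratio of 5.24. In the other direction, AFB1 6 h replicate 1 had a ratio of 2.98 with 10.3% in that row. The part of LOC119646963, and of whatever raised it, in the COX2 ratio was not tested.

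**Figure D4:**
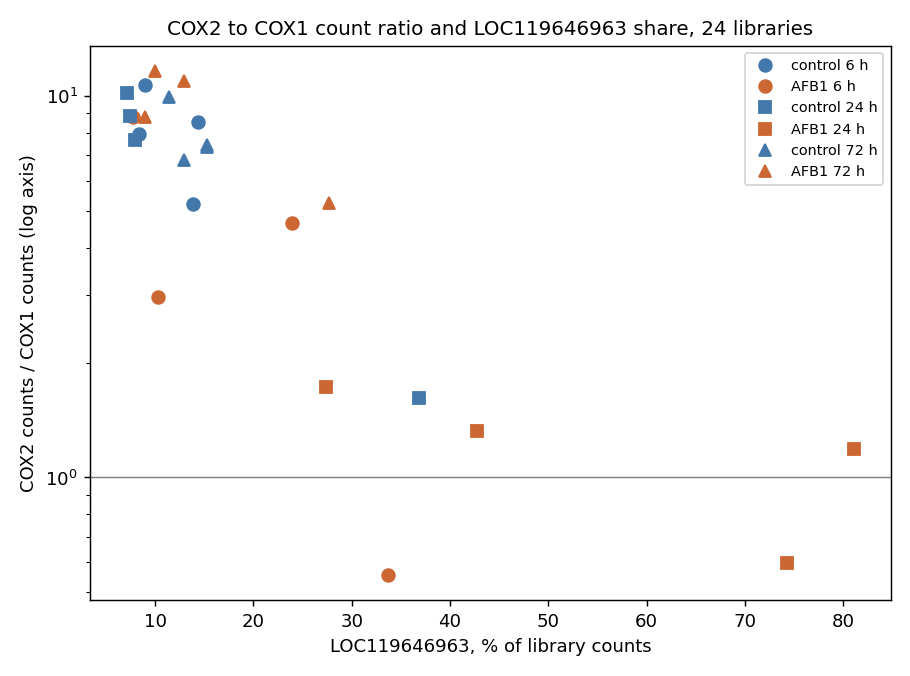
COX2 to COX1 count ratio (log axis) against the share of LOC119646963 in all counts (%), one point per library, coloured by diet and shaped by time. Ratios under 2 are found at shares of 27.4% and above.

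As a description over the 24 libraries, which share their depth and their group differences, the log2 CPM of CYTB, COX1 and COX3 ran together, with Pearson r of 0.966 for CYTB and COX1, 0.957 for CYTB and COX3 and 0.946 for COX1 and COX3. COX2 had r of -0.137 with CYTB, -0.162 with COX1, -0.05 with COX3 and 0.50 with ATP8. The gene most like CYTB and COX3 was ND4, a subunit of complex I, with r of 0.986 and 0.958. For the others it lay outside the mitochondrial protein genes. It was LOC119653501 for COX1 (r of 0.98), LOC119658627 for COX2 (0.82), LOC119653861 for ATP6 (0.88) and LOC119647292 for ATP8 (0.85). The gene most like the mean of the 6 outside the mitochondrial protein genes was LOC119646963 itself, with r of 0.959, followed by LOC119653861 at 0.950. Gene by gene, r with LOC119646963 was 0.97 for CYTB, 0.95 for COX3, 0.94 for COX1, 0.75 for ATP8, 0.73 for ATP6 and -0.03 for COX2.

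The other mitochondrial protein genes give a background for the 6. The 7 complex I genes encode subunits of the complex that takes electrons from NADH. Of these 7, ND1, ND3, ND4, ND4L, ND5 and ND6 were tested and ND2 had 0 counts in all libraries. At 24 h 5 of these 6 passed the edgeR test as higher on AFB1 feed, with a median log2 fold change of 1.66. The exception was ND3, at 0.61 (SE 0.35, adjusted p = 0.180), and ND5 had the largest value, 3.88 (SE 0.79, adjusted p = 0.00513). At 6 and 72 h none passed, and 4 were lower at 72 h than at 24 h in AFB1 larvae. The 6 CYTB, COX and ATP genes together made up 2.19% ± 0.270 of counts outside LOC119646963 in control 24 h and 4.26% ± 1.29 in AFB1 24 h larvae, and of all counts 1.84% ± 0.141 and 1.62% ± 0.560 (SD, n = 4).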

How the data were processed

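The authors deposited a table of read counts per gene for 24 libraries of total RNA from pooled larvae, sequenced as pairs of 150 bp. Per the submitters' processing notes STAR was used; no version, genome build, counting tool or strand setting is named there or in the labels. Of the table's rows, 9 without a name (0.0206% to 0.0431% of a library's counts) were left out. Counts were tested with edgeR 4.0.16 in R 4.3.3: TMM scaling, filterByExpr over the 6 groups, robust quasi-likelihood fit over all 24 libraries, Benjamini-Hochberg adjustment over 10165 genes, threshold 0.05. The common biological coefficient of variation was 0.513 and 18 residual degrees of freedom remained. DESeq2 1.42.0 and limma 3.58.1 (voom), other scalings and left-out libraries were alternatives. CPM used all counts or those outside LOC119646963. Log2 count ratios (0.5 added to each count) of gene pairs were compared with exact permutation tests over 70 divisions. The edgeR and permutation steps were tested on simulated data.

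The genes and lists were chosen with earlier results of these data known. All 6 genes are named by rule, complex I genes are counted, and the genes of most like pattern are those with the highest Pearson r over the 24 libraries (log2 CPM, prior count 2). The control 72 h libraries differed less from one another (1.72% to 26.7% of genes in a pair) than libraries of the other 5 groups (34.1% to 86.8%), but by more than sampling noise. The most alike were replicates 1 and 4 (1.72%) and replicates 2 and 3 (6.93%), where the other pairs had 23.2% to 26.7%. The main fit kept them as 4, and its p-values rest on that. Fits with them summed to 2 or to 1 were alternatives. No label says that equal replicate numbers mark paired libraries. Between AFB1 6 h and AFB1 24 h alone, the correlations of same-numbered libraries were all over 0.1 (r 0.104 to 0.444). Between control 6 h and control 72 h they were all positive but lower (0.0177 to 0.0605). The main fit used no pairing, and a block by replicate number was an alternative. A fit without the 7 libraries whose profile was nearer to another group was computed and set aside, since it picks libraries by their measured profile and so widens the groups' differences.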

Additional observations from a re-analysis of the deposited data

Results flagged for a closer look

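Of 48 groups of 4 libraries examined, 8 had a highest or lowest library separated from the others by a gap over its group's range beyond Dixon's 95% critical value; chance alone gives about 1 in 20. Of these, 5 were in control 24 h replicate 4: CYTB at 2540 CPM, COX1 at 2627 CPM and ATP6 at 69.6 CPM outside LOC119646963 were the highest of their group, COX2 at 4254 CPM was the lowest, and LOC119646963 took 36.8% of its counts. AFB1 72 h replicate 1 was highest in COX3 at 4606 CPM and in CYTB at 1100 CPM. COX3 in control 72 h replicate 2, at 3172 CPM, lay above 3 libraries that nearly coincided.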

How the results depend on the processing

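The share of all genes called differs between settings and is given here for few of them, so the counts below are no result about the 6 genes by themselves. In the main fit that share was 31.3% at 24 h, 14.3% at 6 h and 37.4% averaged over times. At 24 h the number of the 6 genes called was 3, and it was 1 with LOC119646963 in the totals (beside 92 genes called higher and 5090 lower), 5 with limma voom, 0 with only the 8 libraries compared, 0 without AFB1 24 h replicates 3 and 4, and 1 to 5 when each library was left out. At 6 h it was 0, and 1 with DESeq2, with only the 8 libraries compared, and without AFB1 24 h replicates 3 and 4 and control 24 h replicate 4 (added after seeing the data), and 0 to 1 over left-out libraries. Averaged over times it was 4, and 2 with LOC119646963 in the totals, 1 without AFB1 24 h replicates 3 and 4, 1 after summing control 72 h into 2 libraries, 0 after summing it into 1, and 2 to 4 over left-out libraries. For control 24 h against 6 h it was 1 with DESeq2. For AFB1 24 h against 6 h it was 1 with LOC119646963 in the totals and with DESeq2, and 0 to 3 over left-out libraries. For AFB1 72 h against 24 h it was 0 without AFB1 24 h replicates 3 and 4, and 3 to 4 over left-out libraries. For the diet effect differing between times it was 0 to 4 over left-out libraries.

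Signs turned as follows, with the cause not tested. With LOC119646963 in the totals, ATP8 was -0.31 at 6 h, -0.35 at 24 h and 0.89 for AFB1 72 h against 24 h, COX2 was -1.43 at 24 h and CYTB -0.12 at 72 h. With totals outside it, ATP8 was -0.18 at 6 h, COX2 -0.28 at 24 h and CYTB -0.0035 at 72 h. ATP8 at 6 h was -0.0170 with RLE size factors and -0.0170 with DESeq2, and at 72 h -0.0027 with the control libraries summed to 2. At 72 h limma voom gave -0.32 for CYTB, -0.14 for COX1 and -0.0204 for ATP8. COX2 at 24 h was -0.28 without AFB1 24 h replicates 3 and 4, and -0.36 also without control 24 h replicate 4. Over left-out libraries, ATP8 ran from -0.26 to 0.18 at 6 h, COX2 from -0.0249 to 0.26 at 24 h, and at 72 h CYTB from -0.98 to 0.30, COX1 from -0.56 to 0.23, COX2 from -0.13 to 0.18, COX3 from -0.63 to 0.0117, ATP6 from -0.46 to 0.57 and ATP8 from -0.16 to 0.21.

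Over all groups the replicate numbers did not pair the libraries, and no label pairs them. Of 60 correlations of same-numbered libraries 13 were over 0.1, in a range of -0.557 to 0.444, though all 4 between AFB1 6 h and AFB1 24 h were (0.104 to 0.444). Within a time, 4 of 24 libraries correlated best with their own number in the other diet, which does not bear on pairing between times. With a replicate block, 4 genes were called at 24 h (CYTB added, 3.32) and 4 for AFB1 72 h against 24 h (ATP6 added, -2.84), and ATP8 at 6 h was -0.0383. The share of all genes called is not given for these block fits, so the counts of 4 are no result about the 6 genes. In the comparison of AFB1 6 h with 24 h the block left 0 of the 6 genes called.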
